A study of Mus musculus with 6 samples.

Results

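The genes described here encode perlecan (Hspg2), 7 laminin chains (Lama1, Lama2, Lama4, Lama5, Lamb1, Lamb2 and Lamc1) and both nidogens (Nid1 and Nid2), proteins of the basement membrane. Their chromatin was examined by ATAC-seq, in which a transposase cuts and tags open DNA, as the intervals of accessible chromatin that overlapped each gene body or the 20 kb on either side of it on the mouse genome GRCm38.p6. The genes were chosen by name and position, and the 10 windows held 407 of the 323483 intervals of the experiment. No interval fell into the windows of more than 1 gene. The midpoints of 3 intervals lay 19 to 20 kb from a gene body, just inside the windows, and 0 lay 20 to 21 kb away, just outside.

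The cells were mouse embryonic fibroblasts from the cross M2-rtTA x TetO-Myf6, heterozygous for both alleles, in which doxycycline switches on Myf6, a muscle transcription factor. All 3 groups had 2 libraries each, carried both alleles and spent 24 h in iMPC medium with 10 ng/mL bFGF. The first group had that medium alone, the second had 2 µg/mL doxycycline in addition, and the third had the same doxycycline with 5 µM forskolin, 5 µM RepSox and 3 µM CHIR99021 (together F/R/C). F/R/C without doxycycline was not among the groups analysed here, and separate cultures for the libraries of 1 group are not stated in the labels.

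The intervals form 1 set joined over the experiment, with no value for any library or group. The table does not tell in which group an interval was open. No comparison between groups, replicate error or read depth can be given for any gene below, and interval counts, densities and widths are positions of peaks, not amounts of signal. As a check of the labelled cell type, all 10 of 10 fibroblast markers had an interval within 1 kb of an annotated gene end, as did 5 of 5 skeletal muscle, 4 of 5 epithelial, 3 of 4 neural and 3 of 5 endothelial markers, against 1 of 5 markers of macrophages and blood cells and 74.7% of all protein-coding genes. The epithelial, neural and endothelial counts are thus near or below the share of all genes. Skeletal muscle markers had a median density of 66.3 intervals per 100 kb of gene body and fibroblast markers 43.1, without regard to gene length. Among all protein-coding genes the upper quartile of density was 68.0 at lengths of 1.0 to 1.78 kb and 26.3 at 56.2 to 100 kb. The marker sets therefore cannot be ranked by density. With 5 of 5 skeletal muscle markers also at an interval, these positions do not single out fibroblasts.

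Basement membranes are thin sheets of matrix that underlie epithelia and surround muscle fibres, fat cells, vessels and nerves. Laminins are trimers of an alpha, a beta and a gamma chain, and they polymerise on the cell surface, where integrins and dystroglycan hold them. A second network is made of type IV collagen, and nidogens and perlecan, a large heparan sulfate proteoglycan, link both networks and bind growth factors. In skeletal muscle the chain encoded by Lama2 is the main alpha chain around the fibres, and its loss causes a congenital muscular dystrophy.

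The genes differed widely in how densely their bodies were set with intervals. Lamb1 (55.8 intervals per 100 kb of gene body), Hspg2 (55.0) and Lama5 (50.5) stood highest, followed by Nid1 (36.2), Nid2 (31.4), Lamc1 (27.2) and Lama4 (22.8). The lowest values were those of Lamb2 (18.7), Lama2 (12.1) and Lama1 (9.56), so that the range spanned 5.84-fold. Over the 10 genes the median was 29.3, and over all 21883 protein-coding genes it was 18.6, with quartiles of 6.20 and 29.8. Of the 10 genes, 8 lay above that median, against 50.0% of all genes.

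Length was taken into account by setting each gene beside all genes between 0.5 and 2 times as long. By that measure 7 of the 10 genes exceeded the median density of genes like them in length, against 46.8% of all protein-coding genes. For 4 genes, Hspg2, Lamb1, Lama5 and Nid1, fewer than 10% of genes of like length reached the same density, a position that 9.95% of all genes hold. By the share of the body covered, 4 of the 10 genes had that position too, against 9.53% of all genes, and 6 exceeded the median of like-length genes, against 46.8%. The median cover was 12.6% over the 10 genes and 8.72% over all genes. Differences between genes in base composition and in how well reads can be placed were not tested.

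**Figure D1:**
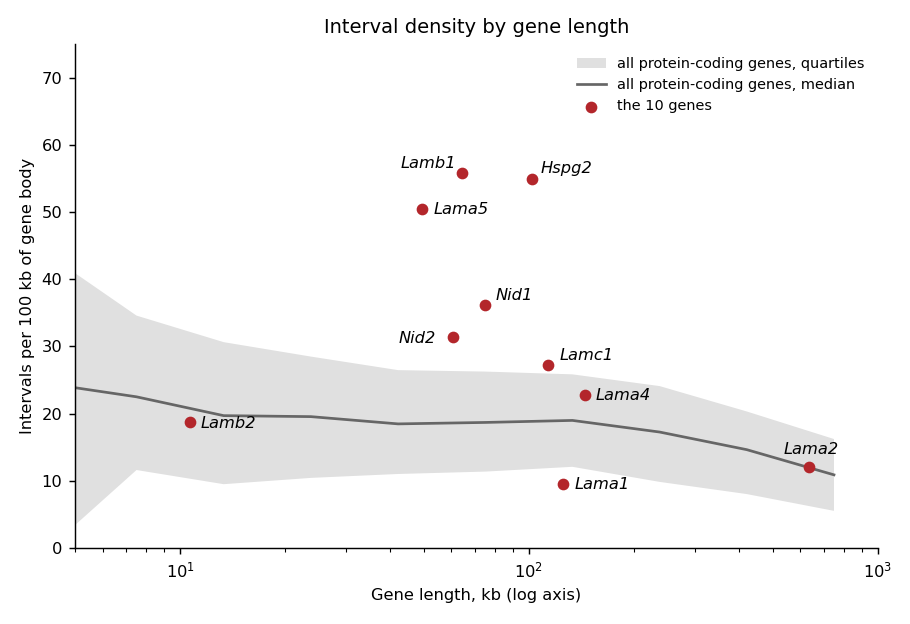
Intervals per 100 kb of gene body against gene length in kb (log axis); red points are the 10 genes, the line and band are the median and quartiles of all protein-coding genes in length bins. Lamb1, Hspg2 and Lama5 sit at 50.5 to 55.8, Lama2 and Lamb2 lie near the line and Lama1 (9.56) lies below the band.

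Hspg2 lies on chromosome 4 from 137468751 to 137570630 (gene ID 15530) and is 101.9 kb long. Its body held 56 intervals, which covered 26.5% of it, against a median of 8.13% for genes of like length. Only 5 of 3878 such genes (0.129%) had a density as high, and 3 (0.0774%) had a cover as high. Intervals were spread along the whole perlecan gene, and the longest stretch without 1 measured 5.59 kb. By count, its intervals gathered toward the end of the gene, where 33 of 56 (58.9%) lay in the last 40% of the body. Over 3867 genes of at least 50 kb with a start in the RefSeq promoter table, that part held 39.3% of the intervals. Cover by part of the gene was not measured, so this describes numbers of intervals and not open sequence. Of the intervals of at least 1000 bp, those of 1412, 1167, 1991 and 1021 bp lay within 26.9 kb of the start side. Those of 1127 and 1470 bp lay in the last 40%. Of the 10 kb windows beginning at an interval start inside Hspg2, the most covered ran from 137560325 to 137570324, close to its end. It held 10 intervals over 42.6% of the sequence. The widest interval of Hspg2 was not at its start. It measured 1991 bp, from 137487445 to 137489435, and began 18.7 kb into the gene.

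Of the alpha chain genes, Lama5, whose product is the widespread alpha chain of epithelial and vessel basement membranes, was densest. It lies on chromosome 2 from 180176373 to 180225904 (gene ID 16776, 49.5 kb) and held 25 intervals over 20.0% of its body. Of 6235 genes of like length, 30 (0.481%) were as dense and 192 (3.08%) had a cover as high. Its widest interval, 1032 bp from 180183954 to 180184985, began 40.9 kb from the start side of the gene, and a wider one of 1617 bp (180227383 to 180228999) lay outside it, before the start.

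Lama4, which encodes an alpha chain of vessels, nerve and fat, lies on chromosome 10 from 38965515 to 39110188 (gene ID 16775, 144.7 kb) and held 33 intervals over 7.87% of its body. Its density exceeded the median of like-length genes (22.8 against 18.6), with 34.1% of those genes as dense, while its cover lay just below theirs (7.87% against 8.08%). The intervals of Lama4 were uneven, as 24 of 33 lay in the 50% of the gene next to its lower end and 10 in the nearest 10%. A stretch of 29.8 kb toward the other end, from 39067290 to 39097048, held none.

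Lama2, the muscle alpha chain, is the longest of the 10 genes at 635.9 kb, on chromosome 10 from 26981285 to 27617191 (gene ID 16773). It had the most intervals in its body, 77, but per length it lay close to other genes of its size, at 12.1 per 100 kb against a median of 13.5 over 489 genes. Intervals covered 4.79% of Lama2, against 5.38% for those genes. Among its widest intervals away from the start were 1 of 1699 bp (26995299 to 26996997), 620.2 kb into the gene and near its far end, and 1 of 1367 bp (27494075 to 27495441), 121.8 kb in.

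Lama1, which encodes the alpha chain of the earliest embryonic basement membranes, was the sparsest. On chromosome 17 from 67697127 to 67822645 (gene ID 16772, 125.5 kb), it held 12 intervals over 3.35% of its body, and 81.7% of 3273 genes of like length were at least as dense. Of those 12 intervals, 1 of 1140 bp spanned the lower end of the gene, and 44.6 kb in the middle, from 67732288 to 67776914, held none. Its flanks held more per length than its body (20.0 against 9.56 intervals per 100 kb). Between Lama5 and Lama1 the density differed 5.28-fold and the cover 5.98-fold.

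The beta chain genes differed 2.98-fold in density, and less over intervals of at least 300 bp (29.5 and 18.7 per 100 kb). Lamb1, whose product is the beta chain of most laminins, lies on chromosome 12 from 31265146 to 31329644 (gene ID 16777, 64.5 kb) and held 36 intervals over 21.6% of its body. Its longest stretch without an interval was 5.88 kb, and 10 of 5326 genes of like length (0.188%) were as dense. A wide interval of 1506 bp (31270435 to 31271940) followed the start at 5.29 kb. Of the 10 kb windows beginning at an interval start inside Lamb1, the most covered ran from 31290988 to 31300987. It held 9 intervals over 36.1% of the sequence. Windows beginning at the edge of the gene, where an interval spans the start, were not measured.

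Lamb2, whose product is concentrated at the neuromuscular junction and in the kidney glomerulus, is the shortest gene at 10.7 kb, on chromosome 9 from 108479847 to 108490530 (gene ID 16779). It held an interval at each end, of 1822 and 1039 bp, and none in the 9.92 kb between them, which make up 92.9% of the gene. The interval at the far end overlapped Usp19, a neighbour 76 bp beyond Lamb2, so the genes cannot be told apart there. With so few intervals the density of Lamb2 has little meaning. It lay below the median of like-length genes over all widths (18.7 against 20.6) and above it over intervals of at least 300 bp (18.7 against 13.9).

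Lamc1, which encodes the gamma chain found in most laminins, lies on chromosome 1 from 153218922 to 153332786 (gene ID 226519, 113.9 kb). It held 31 intervals over 13.3% of its body, and 21.3% of 3581 genes of like length were as dense. The widest interval over any of the 10 genes was at the upper end of Lamc1, from 153331756 to 153334083 (2328 bp). Further into the gene, intervals of 1379, 1365 and 1025 bp began 14.4, 23.5 and 49.5 kb from that end.

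The nidogen genes lay next to each other in density, with Nid1 more covered than Nid2. Nid1, on chromosome 13 from 13437602 to 13512275 (gene ID 18073, 74.7 kb), held 27 intervals over 17.7% of its body, and Nid2, on chromosome 14 from 19751257 to 19811787 (gene ID 18074, 60.5 kb), held 19 over 11.8%. Of the genes of like length, 5.38% were as dense as Nid1 and 13.4% as dense as Nid2. By cover these shares were 5.48% and 28.7%, and by density over intervals of at least 300 bp they were 4.07% and 43.5%. The high density of Nid2 thus rested on narrow intervals. Nid1 exceeded Nid2 by 1.15-fold in density and 1.50-fold in cover, and over intervals of at least 300 bp the densities lay further apart, at 22.8 and 11.6 per 100 kb. The median interval over Nid1 measured 416 bp and that over Nid2 229 bp. The widest interval of Nid1, 1921 bp from 13503593 to 13505513, began 66.0 kb into the gene, whereas that of Nid2, 1497 bp, spanned its lower end.

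**Figure D2:**
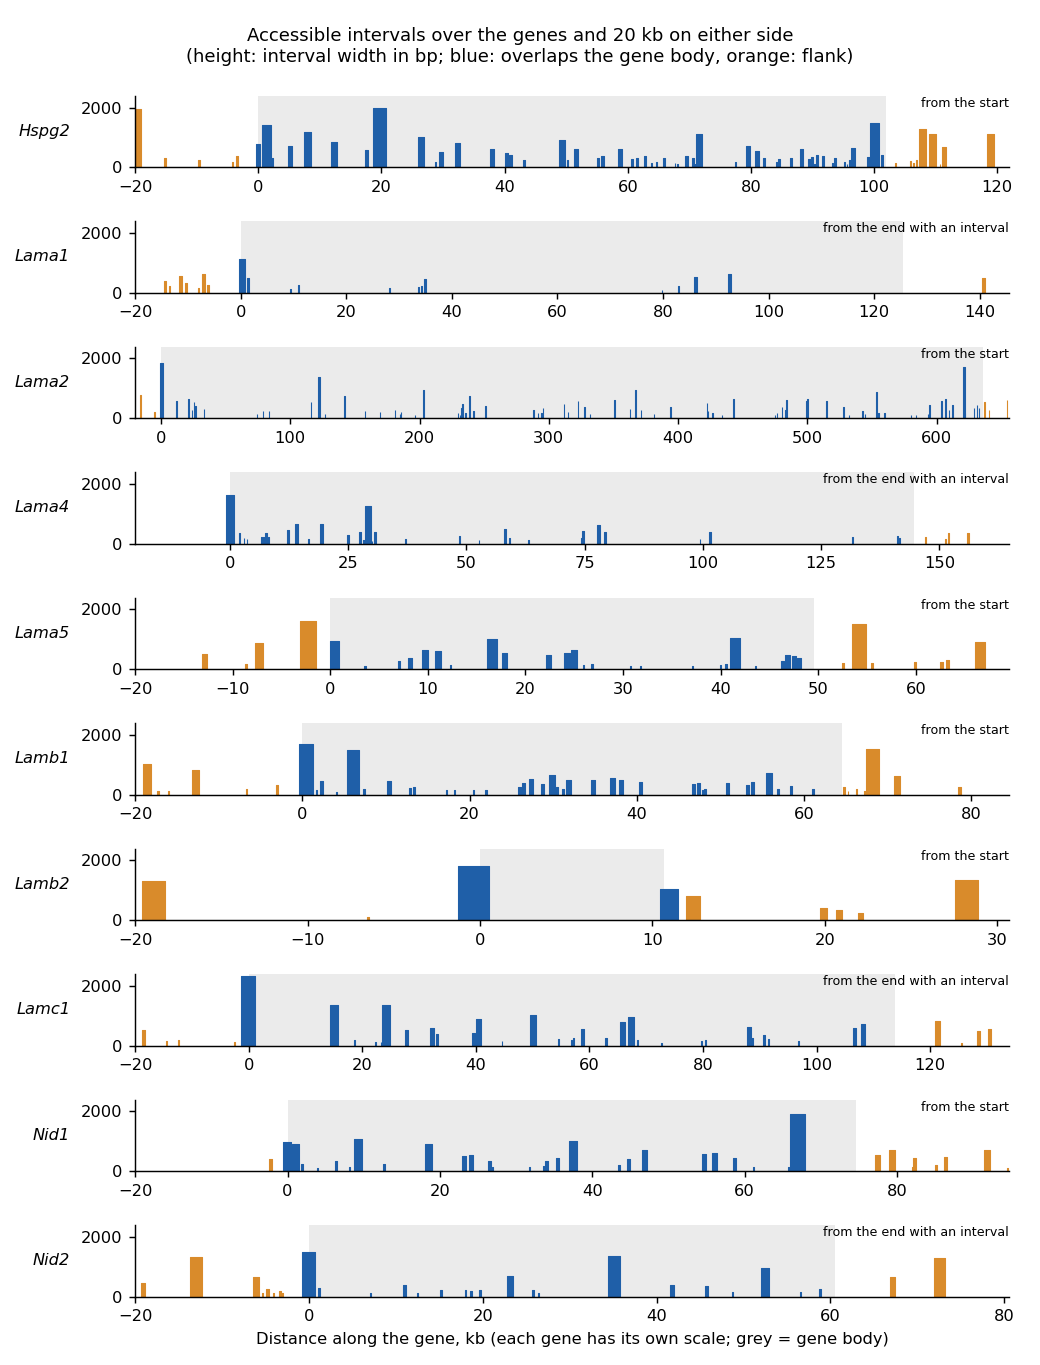
Intervals over each gene and 20 kb on either side, by distance in kb along the gene from the annotated end on the start side, or from the end with an interval where no start was in the promoter table; bar height is interval width in bp, and bar outlines make the narrowest intervals visible. Hspg2, Lama5 and Lamb1 carry intervals throughout, Lama1 has an empty stretch of 44.6 kb and Lamb2 has intervals only at its ends.

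All 10 genes had an accessible start or gene end. Starts were taken from the RefSeq promoter table (GRCm38.p6), which matched Hspg2, Lama2, Lama5, Lamb1, Lamb2 and Nid1. Lama1, Lama4, Lamc1 and Nid2 were not in it. All 6 starts lay within 1 kb of an interval, against 71.6% of the 17491 protein-coding genes with such a start, and each lay inside one. Each of the other 4 genes had an interval spanning 1 of its annotated ends and none within 1 kb of the other. Over all protein-coding genes 74.7% had an interval within 1 kb of either end, and over those of 60 to 640 kb, the lengths of these 4 genes among them, 89.3% did. Counts of this kind are thus near the background for genes of this size.

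The intervals at the starts differed in extent. That of Lama2 measured 1844 bp and reached from 931 bp before the start to 912 bp after it. At Lamb2 the interval of 1822 bp lay mostly before the start, with 1284 bp before and 537 bp after. At Lamb1 it measured 1684 bp, with 578 bp before and 1105 bp after. The start of Hspg2 lay in a narrower interval of 782 bp, which was followed 514 bp after the start by another of 1412 bp. Nid1 had the same arrangement, with an interval of 964 bp over the start and a second one of 914 bp beginning 538 bp after it. At Lama5 the interval measured 959 bp and reached only 129 bp before the start. The lncRNA gene Gm52542 overlaps the Lama5 start, so the interval there is shared by both annotations.

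The sequences around the starts fall into CpG-rich and CpG-poor ones. They are shown for Hspg2 and Lamb1, the densest genes, and for Lama2 and Lamb2, whose starts held few CpG dinucleotides. Each runs from 250 bases before the start to 50 after it, 5′ to 3′ on the strand of the gene, from RefSeq on GRCm38.p6, and capitals mark CpG dinucleotides. The positions are chr4:137468553-137468852 (plus strand) for Hspg2, chr12:31265043-31265342 (plus strand) for Lamb1, chr10:27616893-27617192 (minus strand) for Lama2 and chr9:108479612-108479911 (plus strand) for Lamb2.
Hspg2: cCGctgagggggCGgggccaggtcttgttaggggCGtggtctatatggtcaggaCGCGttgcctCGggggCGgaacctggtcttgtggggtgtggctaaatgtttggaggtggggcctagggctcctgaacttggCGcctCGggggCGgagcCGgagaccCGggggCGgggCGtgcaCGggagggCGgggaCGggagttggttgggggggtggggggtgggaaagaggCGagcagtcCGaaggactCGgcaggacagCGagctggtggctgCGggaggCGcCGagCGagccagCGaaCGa
Lamb1: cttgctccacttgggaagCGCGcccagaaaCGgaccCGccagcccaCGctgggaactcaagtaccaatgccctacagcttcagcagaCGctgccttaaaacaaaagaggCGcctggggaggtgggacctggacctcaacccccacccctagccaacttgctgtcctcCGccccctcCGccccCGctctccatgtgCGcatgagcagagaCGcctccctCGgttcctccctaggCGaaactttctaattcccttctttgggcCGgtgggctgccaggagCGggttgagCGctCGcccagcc
Lama2: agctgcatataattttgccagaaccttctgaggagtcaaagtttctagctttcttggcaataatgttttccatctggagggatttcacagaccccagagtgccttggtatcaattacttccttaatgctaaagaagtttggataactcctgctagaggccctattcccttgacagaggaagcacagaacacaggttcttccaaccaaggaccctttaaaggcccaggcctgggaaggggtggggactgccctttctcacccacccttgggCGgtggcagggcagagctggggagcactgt
Lamb2: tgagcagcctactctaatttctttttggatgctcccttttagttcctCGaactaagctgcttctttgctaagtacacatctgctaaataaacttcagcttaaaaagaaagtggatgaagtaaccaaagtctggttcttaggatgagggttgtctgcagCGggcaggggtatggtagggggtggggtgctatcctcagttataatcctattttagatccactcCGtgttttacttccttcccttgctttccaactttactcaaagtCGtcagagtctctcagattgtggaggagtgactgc

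CpG-rich starts are the usual type at widely used genes, and CpG-poor starts are typical of genes used in few tissues. The observed count of CpG divided by that given by the C and G content was 0.877 for Hspg2 (27 CpG), 0.640 for Nid1 (20), 0.615 for Lamb1 (18) and 0.607 for Lama5 (24). For Lamb2 it was 0.276 (4 CpG), and for Lama2 0.0527, with 1 CpG in the 300 bases. Over all 32851 start windows of the table, 52.2% of the starts lay inside an interval, and this share rose with CpG content. With a ratio below 0.2, the class of Lama2, 1398 of 9412 starts (14.9%) lay inside an interval, and with 0.2 to 0.4, the class of Lamb2, 2360 of 7471 (31.6%) did. In the classes of the other 4 genes the shares were 88.3% (0.6 to 0.8) and 94.4% (0.8 to 1.0).

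The CpG-poor starts of Lama2 and Lamb2 thus lay in intervals although most starts of their classes did not. Their intervals were also wide for such starts. In the class of Lama2, the interval over a start had a median width of 643 bp (quartiles 370 and 1030 bp), and 3.72% of the accessible starts (52 of all 9412 starts, 0.552%) lay in 1 at least as wide as the 1844 bp at Lama2. In the class of Lamb2 the median was 847 bp (quartiles 535 and 1240 bp), and 6.86% of the accessible starts (162 of all 7471, 2.17%) lay in 1 of 1822 bp or more. At Hspg2 the interval was narrow for its class, since 94.6% of the accessible starts of its class lay in an interval at least as wide as its 782 bp. For Lamb1, Nid1 and Lama5 the share of accessible starts was 22.9%, 80.4% and 80.7%. Starts of 1 gene and of neighbouring genes can share an interval in these counts, and the contrast was drawn after the sequences had been seen.

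**Figure D3:**
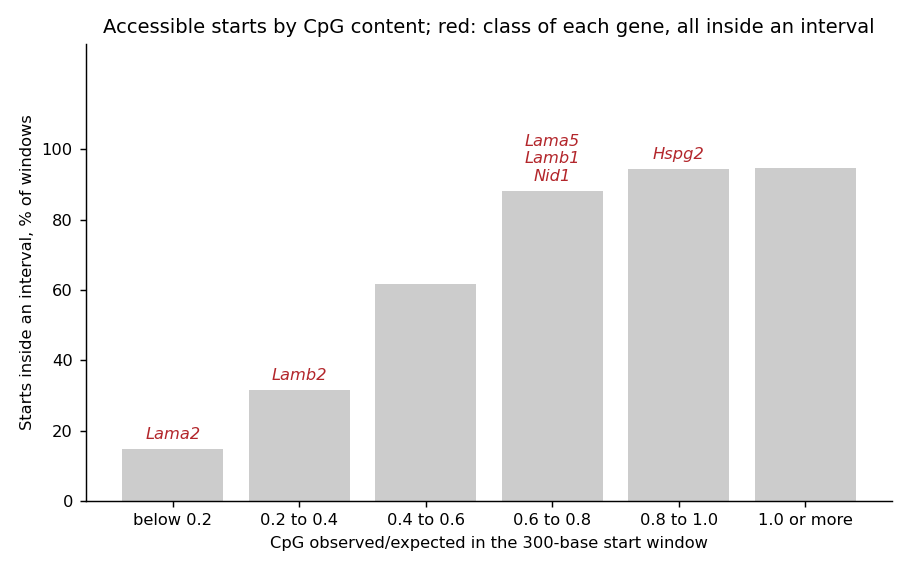
Share of all RefSeq start windows whose start lies inside an interval (y axis, %), by observed over expected CpG in the 300 bases (x axis); gene names in red stand above the bar of their class. The share rises from 14.9% in the class of Lama2 to 94.4% in that of Hspg2, and all 6 starts of the named genes lie inside an interval.

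Short motifs were counted in the 6 start windows on both strands. The GC box GGGCGG, bound by Sp1-type factors, was present at 5 of 6 starts, with 5 matches at Hspg2, 4 at Lama5, 2 at Lamb1 and 1 each at Lama2 and Nid1. It occurs in 35.7% of all start windows and in 58.6% of those whose start lies inside an interval. The general E-box CANNTG, the core bound by basic helix-loop-helix factors, was found at Lama2, Lama5, Lamb1 and Lamb2, 4 of 6 windows, against 72.3% of all windows. The form CAGCTG, which is the E-box preferred by myogenic factors and is contained in the general one, was found in 0 of 6 windows and in 16.3% of all. The CCAAT box CCAAT was in 2 of 6 windows, those of Lamb1 and Nid1 (37.4% of all), and the TEAD site GGAATG in that of Nid1 (14.7% of all). The AP-1 site TGANTCA (7.81% of all), the cAMP response element TGACGTCA (1.79%) and the TATA box TATAAA (13.6%) had no match in the 6 windows. A match or its absence concerns these letters in these 300 bases only.

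By count, most wide intervals inside the genes lay away from the starts, as did most intervals of any width. The matching share of wide intervals over all protein-coding genes was not measured. Whether this split is particular to these genes was therefore not tested. Of 27 intervals of at least 1000 bp over the 10 gene bodies, 19 did not reach within 1 kb of the annotated end on the start side, or of the end with an interval where no start was listed. The intervals spanning the start, or that end, measured 782 bp (Hspg2) to 2328 bp (Lamc1), all above the median of 328.5 bp over the bodies. Intervals at the starts were thus wider than those over the bodies at large, which also holds for accessible starts in general. Over all RefSeq starts inside an interval, the median interval width was 643 to 1494 bp across the CpG classes. Hspg2 contributed 6 of the 27, Lamc1 4, and Lama2 and Nid1 3 each. Intervals of at least 600 bp made up 22.0% of the 318 over these bodies, against 28.1% of the 174956 over all protein-coding bodies, and the median widths were 328.5 and 350.0 bp. The high densities of Hspg2, Lamb1 and Lama5 thus came with many intervals of ordinary width, whose medians were 356, 334 and 373 bp.

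The dense genes stood out from their surroundings to different degrees. The 500 kb beyond the window on either side of Nid1 held 8.10 intervals per 100 kb, against 36.2 in its body, a ratio of 4.46. For Lamb1 the ratio was 3.42 (16.3 per 100 kb around it), for Lama5 2.90 (17.4), for Nid2 2.80 (11.2) and for Hspg2 2.01 (27.4). Among 4918 protein-coding genes of at least 50 kb the median ratio was 1.09 and the upper quartile 1.53, while 0.854% reached the ratio of Nid1 and 2.01% that of Lamb1. Lama4 (1.34) lay between the median and that quartile, Lamc1 (0.990) was close to its surroundings, and Lamb2 (0.875), Lama2 (0.835) and Lama1 (0.579) lay below theirs.

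**Figure D4:**
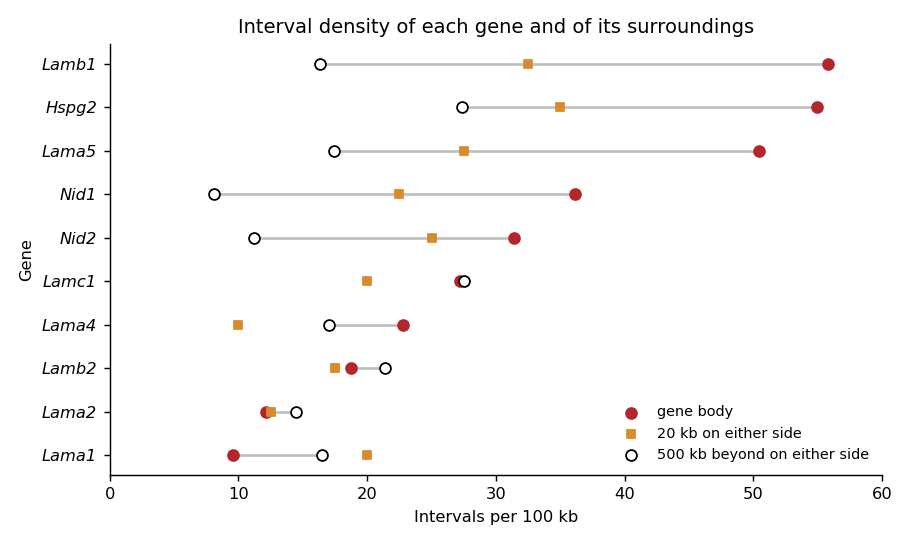
Intervals per 100 kb (x axis) of each gene (y axis, ordered by body density): red circles are the gene body, orange squares the 20 kb on either side, open circles the 500 kb beyond. Nid1 and Lamb1 have the highest ratios of body to surroundings (4.46 and 3.42), whereas Lama1, Lama2 and Lamb2 lie left of theirs and Lamc1 (27.2 against 27.5) nearly coincides.

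The 20 kb flanks held 89 of the 407 intervals. Their median density was 21.2 per 100 kb for the 10 genes and 17.5 for all protein-coding genes, and in 8 of the 10 genes the flank density was below that of the body, against 48.8% of all protein-coding genes and 53.2% of those of at least 50 kb. Part of the flank intervals lay over other protein-coding genes, 9 of 14 at Hspg2, 6 of 7 at Lamb2 and 4 each at Lama5 and Lamb1. The widest flank interval of Hspg2, of 1957 bp (137447812 to 137449768), lay across the edge of its window, before the gene and over no protein-coding gene.

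Along the gene, the share of intervals in the 50% of the body nearest the start was 32.1% at Hspg2, 44.0% at Lama5, 45.5% at Lama2, 58.3% at Lamb1 and 63.0% at Nid1. The median over 3019 genes of at least 50 kb and at least 10 intervals was 51.6%, and the lower quartile was 44.0%. Hspg2 thus lay below the lower quartile and Nid1 above the upper quartile. Lama4, Lama1, Nid2 and Lamc1 were read from the end with an interval, a choice that itself can raise the share, and are given as values only, at 72.7%, 66.7%, 63.2% and 48.4%. By the correlation of counts over 10 equal parts of the body, the gene most like Hspg2 among the 8 others compared was Lama5 (Pearson r = 0.55), and Lamb1 and Nid1 were most like each other (r = 0.59). Lama1 and Lama4 were also nearest to each other (r = 0.46). Both were read from the end with an interval, however, so the choice of end can itself raise this value. These values are descriptions over 10 parts with few intervals in each, and Lamc1 (r = 0.05) and Nid2 (r = 0.18) had no close counterpart.

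The 30 other listed genes of the basement membrane had a median of 24.8 intervals per 100 kb and a cover of 11.4%, 21 of 30 exceeded the median density of genes of like length, against 46.8% of all genes, and 30 of 30 had an interval within 1 kb of a gene end, against 74.7% of all genes and 89.3% of those of 60 to 640 kb. Their median length was 114.4 kb. Densest were Sparc (46.3 per 100 kb), which encodes a collagen-binding matrix protein, Tinagl1 (42.0) and the fibulin gene Fbln2 (41.6). Lowest were Col4a5 (7.48) and Frem2 (8.99), followed by the pikachurin gene Egflam (9.86). Col4a5 lies on the X chromosome. The laminin genes Lamb3 (28.3), Lamc3 (24.3) and Lama3 (22.0) lay between Nid2 and Lamb2 in density.

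Of the 14 listed laminin receptors and partners, 13 matched the gene table. The 13 had a median density of 28.2 and a cover of 14.9%. Of them, 10 of 13 exceeded the median density of genes of like length (46.8% of all genes). An interval within 1 kb of a gene end was found at 13 of 13 (74.7% of all genes). These 13 genes had a median length of 28.6 kb, against 17.2 kb over all genes. The share of genes with such an interval was not measured at their lengths. Rpsa (43.4 per 100 kb) and the glypican gene Gpc1 (42.0) were among the 3 densest, and the integrin gene Itga3 (12.4), Bcam (13.9) and the dystroglycan gene Dag1 (15.2) were lowest. Rpsa is short, at 4.60 kb, and held 2 intervals.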

How the data were processed

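Per the labels' protocols, each library started from 50k cells by Omni-ATAC and was amplified for 12 cycles. BWA, MACS2 and DESeq2 with GRCm38.p6 are named in the submitters' processing notes with neither version nor role. Consensus peaks were passed through HOMER annotatePeaks with GENCODE vM23 by the authors, per the file headers. The deposited table gives interval positions only, 1-based. Peak scores are all 0 and annotation columns empty, so neither was used. Peak calling, joining and filters are not given in the sources used here, and depth is unknown.

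Gene bodies came from the RefSeq gene table of GRCm38.p6 (21883 protein-coding genes) and starts from the RefSeq promoter table (32851 windows). Exons and introns were not used. Intervals were counted by any overlap. Density is intervals per 100 kb of body, and cover is the percent of its bases inside intervals. Genes of like length were 0.5 to 2 times as long. Counting was tested on simulated data and equalled a direct count in 200 of 200 regions. No test was run, since no value has replicates. All 10 genes were named, and of the other lists the 3 densest and 3 least dense genes, with other laminin genes added after their values were seen. Some genes of these lists are not reported here. The genes, lists and measures were chosen with earlier results of these data known. Surroundings, positions along the gene and the CpG classes were added later. Alternatives covered flanks, minimum widths, midpoints, neighbouring genes and distances from the start. Python 3.11.15 with numpy 2.4.6, pandas 2.3.3 and matplotlib 3.10.9 was used.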

Additional observations from a re-analysis of the deposited data

How the results depend on the processing

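No paired analysis was possible because the table names no library, and leaving out a library was not possible for the same reason. The 407 intervals in the windows became 318 with no flank, 346 with 5 kb and 515 with 50 kb, 380 without intervals over another protein-coding gene, and 215 with only intervals of at least 300 bp. The median density of 29.3 per 100 kb was 28.0 by interval midpoints, 27.1 with the 20 kb flanks (all genes 18.2) and 16.4 with intervals of at least 300 bp (all genes 10.8). The median cover of 12.6% was 13.9% with the flanks (all genes 9.19%) and 9.39% with intervals of at least 300 bp (all genes 7.08%). All 10 genes kept an interval at a start or end at 0 bp, 500 bp and 5 kb and with minimum widths of 300 and 600 bp. The number of genes with a density reached by fewer than 10% of like-length genes was 4, and it was also 4 over intervals of at least 300 bp and by cover, alternatives chosen after seeing the data. Unknown depth limits every count, since shallow libraries leave weak sites uncalled.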

Other observations

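Several intervals near the 10 genes lay at features of other kinds. The microRNA gene Mir7018, inside Hspg2, lay under an interval of 378 bp (137538114 to 137538491), while Mir7005, inside Lama5, was overlapped by 0 intervals. The lncRNA gene Gm32899 ends 53 bp before the annotated lower end of Lamb1, and the pseudogene Gm7426 ends 50 bp before that of Nid1, so that the intervals over those ends also reach the neighbour. Rtraf overlaps the upper end of Nid2, and Adrm1 lies 89 bp beyond the lower end of Lama5, which had no interval within 1 kb. Inside Lama2, the annotated genes Gm40618, Gm17917 and 4930579H20Rik were overlapped by 0 intervals.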
